A study of Mus musculus with 24 samples.

Results

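The collagen genes were taken as every protein-coding gene whose symbol is Col, a number, the letter a and a number. This gave 44 of the 55487 genes in the tables, which were sorted by structure from textbook knowledge into 11 fibrillar, 6 basement membrane, 9 FACIT and 18 other collagens. FACIT stands for fibril-associated collagens with interrupted triple helices. The study asked how immobilization and the peptide MOTS-c act on muscle: the gastrocnemius, a calf muscle, was collected from 24 male C57BL/6J mice, and poly-adenylated RNA was sequenced from 1 library a mouse. The uncasted mice received water and no cast. The casted mice received water while casts held both hindlimbs for 8 days. The casted mice given MOTS-c wore the same casts and received 15 mg/kg of MOTS-c a day. All 3 groups had 8 mice and were injected intraperitoneally 2 times a day for the 8 days, so the injections themselves are shared by every group. The design text gives 10 weeks as the age when groups were assigned and the sample labels give 12 weeks. MOTS-c is a short peptide encoded in a mitochondrial ribosomal RNA gene. No group combines MOTS-c with an uncasted limb.

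Collagens are triple-helical proteins of the extracellular matrix. Fibrillar collagens such as types I and III form the cables of tendon and of the connective tissue sheaths of muscle, type IV forms the network of basement membranes around each muscle fibre and capillary, and FACIT collagens sit on the surface of fibrils. Type VI forms beaded filaments next to the basement membrane, and the type XV and XVIII collagens link basement membranes to the interstitium. In muscle most collagen RNA comes from fibroblasts, with type IV also made by endothelial cells and muscle fibres. In bulk tissue, fewer cells of a type and less RNA per cell cannot be told apart.

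The deposited values were TPM, a length-normalized measure of transcript abundance, so levels can be set side by side between genes, but the reads behind them are unknown. Libraries were scaled to each other by a trimmed mean of log ratios, and every level below is a scaled TPM. Changes are log2 differences on log2(scaled TPM + 1), a scale that understates the change of low genes, and a gene was called at an adjusted p under 0.05 (limma, Benjamini-Hochberg over all 14690 genes tested). Genes were tested where at least 8 libraries reached a TPM of 0.5, which left 35 of the 44 collagens: 10 fibrillar, 5 basement membrane, 7 FACIT and 13 other. Col19a1 passed that filter through the casted groups alone, since 0 of 8 uncasted libraries reached it, so its inclusion is tied to its being high there. Col9a1 passed through the uncasted group, where it is higher. The 9 untested members (Col2a1, Col4a6, Col6a4, Col6a5, Col9a2, Col9a3, Col10a1, Col17a1 and Col25a1) had group means of at most 0.313.

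Libraries held 19832 to 21755 genes above 0. Mitochondrially encoded genes took 20.5 to 22.3% of TPM in uncasted libraries, 13.9 to 17.1% in casted and 15.3 to 20.3% with MOTS-c. The scaling changes the centre of the data: in casted against uncasted libraries the median change of all genes was 0.01 with it and 0.39 on the deposited scale. MOTS-c replicate 5 stood apart, at -17.8 on the first principal component where the other 7 lay between 13.7 and 29.6. The muscle fibre markers that define the labelled tissue were detected in every group, with none of the 8 at 0 throughout a group. No label says more of how mice were housed or processed together, and p-values measure the spread between these mice.

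Casting was followed by lower RNA of most collagens and by a large rise of Col19a1. In casted against uncasted libraries 27 of the 35 collagens tested were lower, where 27.7% of all genes tested were, and 2 were higher, where 28.7% of all genes were. The higher ones were Col19a1 and Col7a1. The median change of the 35 was -0.72, beside 0.01 for all genes tested. All 10 fibrillar collagens tested fell (median -0.99), as did all 5 basement membrane collagens (median -0.61). Of the 7 FACIT collagens 5 fell and Col19a1 rose, and of the 13 other collagens 7 fell and Col7a1 rose. The 8 libraries of each group did not overlap at all for 7 collagens that fell (10.9% of all genes did so in that direction), namely Col4a3, Col4a4, Col6a2, Col9a1, Col15a1, Col22a1 and Col24a1. Col19a1 was the only collagen tested whose groups were apart in the other direction (11.5% of all genes). With no filter on low values all 44 collagens could be tested, and 29 were lower and 2 higher, where 14.0% and 13.9% of the 30779 genes then tested were. On the deposited scale, without scaling, 17 were lower (7.43% of all genes) and 3 higher (62.2%), with Col20a1 added, and the median of the 35 was -0.37 beside 0.39 for all genes. The 10 calls lost there were Col4a1, Col4a2, Col5a2, Col5a3, Col8a2, Col12a1, Col14a1, Col16a1, Col18a1 and Col27a1, and 9 of them, all but Col4a1, were also lost with totals taken without mitochondrially encoded genes.

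**Figure D1:**
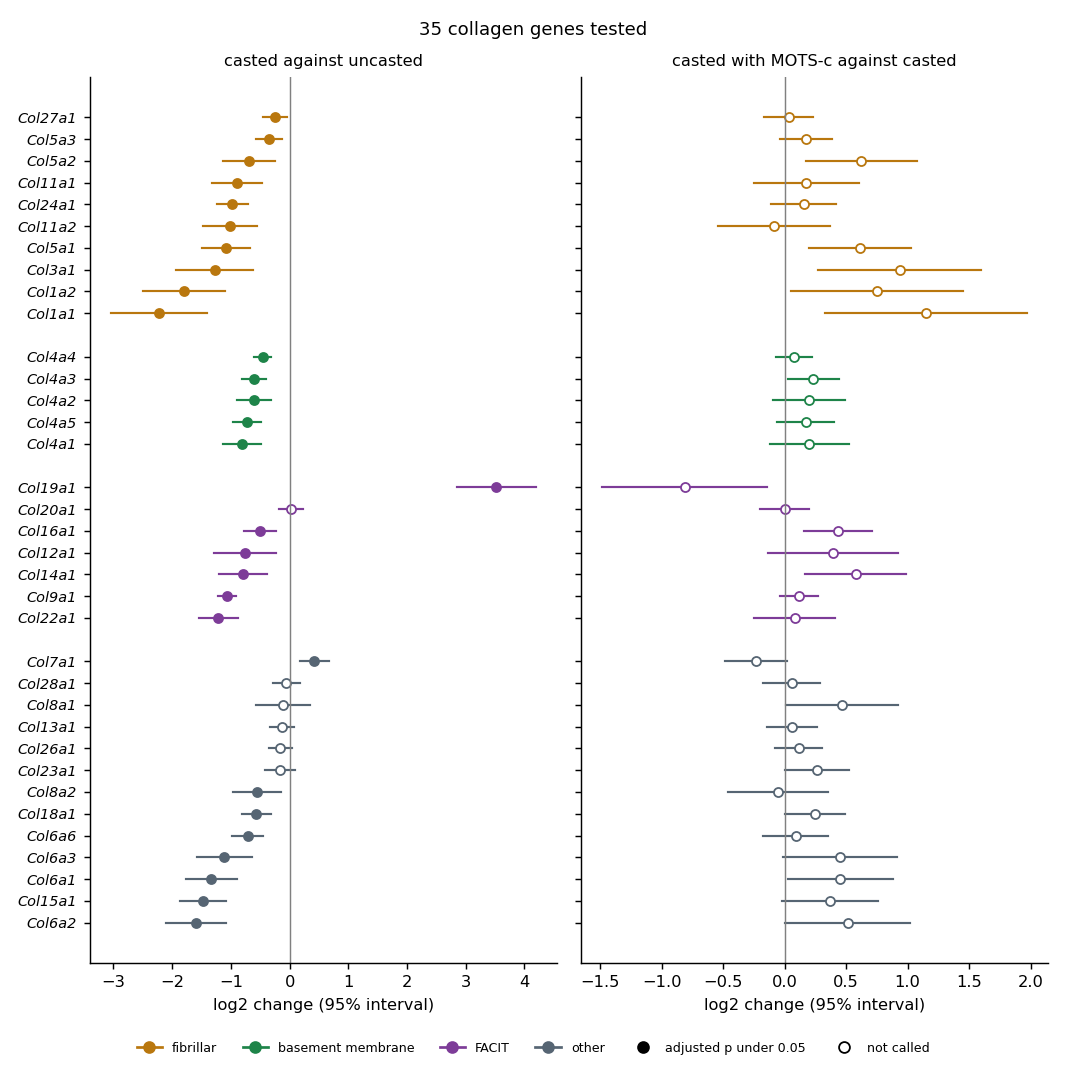
Log2 change of each of the 35 collagen genes tested, by class, with its 95% interval: casted against uncasted on the left and casted with MOTS-c against casted on the right, each panel with its own axis; filled points have an adjusted p under 0.05. On the left 27 points are filled below 0 and 2 above it, with Col19a1 alone at 3.52; on the right no point is filled.

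The plot of changes by class shows the fibrillar collagens spread from -0.25 to -2.22 and the basement membrane collagens in a narrower band from -0.46 to -0.81. The intervals of Col1a1, Col1a2 and Col3a1 are wider than those of the basement membrane collagens.

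The fibrillar collagens of types I and III were the most abundant collagen RNAs of uncasted muscle. Col1a1 and Col1a2 encode the 2 chains of type I collagen, the main protein of tendon and scar. Col1a1 (chromosome 11, 94936224 to 94953042, GRCm38) ran from 39.2 to 147.4 scaled TPM in uncasted libraries with a median of 96.5, from 6.39 to 67.1 with a median of 11.7 in casted libraries, and from 16.1 to 65.3 with a median of 42.4 in casted libraries with MOTS-c. Its mean fell from 89.3 ± 38.7 to 22.7 ± 21.1 (SD, n = 8), a log2 change of -2.22 ± 0.40 (SE) with an adjusted p of 4.19e-05 in limma. The groups overlapped through the 3 lowest uncasted libraries and the highest casted one. Col1a2 ran from 54.5 to 191 (median 129.7) in uncasted, from 14.9 to 90.3 (median 23.8) in casted and from 23.5 to 84.4 (median 59.5) in MOTS-c libraries. It changed by -1.80 ± 0.34 (SE, adjusted p 7.76e-05). Col3a1, the fibrillar collagen of reticular fibres, ran from 70.4 to 129.6 (median 98.03) in uncasted libraries, from 13.6 to 105 (median 37.2) in casted libraries and from 31.5 to 160.1 (median 83.0) with MOTS-c. It changed by -1.28 ± 0.32 (adjusted p 0.00156), and 2 of the 8 casted libraries lay within the uncasted range.

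Type V collagen nucleates type I fibrils and sets their width, and its 3 genes also fell. Col5a1 ran from 9.65 to 15.1 (median 13.0) in uncasted, 3.13 to 11.5 (median 4.51) in casted and 4.85 to 12.8 (median 8.19) in MOTS-c libraries, with a casting change of -1.08 ± 0.20. Col5a2 ran from 8.39 to 13.4 (median 10.8), from 2.94 to 11.8 (median 5.58) and from 4.77 to 16.8 (median 9.99) in the same order, a casting change of -0.69 ± 0.22. Col5a3 ran from 4.84 to 8.31 (median 5.87), from 3.61 to 6.40 (median 4.54) and from 4.53 to 6.17 (median 5.39), a casting change of -0.35 ± 0.10. Of these Col5a3 turns sign on the deposited scale (0.08, adjusted p 0.572), and Col5a2 loses its call there. Within replicates 1 to 5 both miss the threshold, and Col5a3 also does within replicates 6 to 8. The minor fibrillar collagens Col11a1, Col11a2, Col24a1 and Col27a1, which were below 5 scaled TPM in every group mean, fell by 0.25 to 1.01 on the log2 scale. Col24a1 was the one among them whose groups did not overlap, with means of 2.18 uncasted and 0.604 casted. The call of Col27a1 (-0.25 ± 0.10, adjusted p 0.0299) was lost without uncasted replicate 7 or any one of casted replicates 3, 5 and 6, and also with no filter, within replicates 1 to 5 and on the deposited scale.

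**Figure D2:**
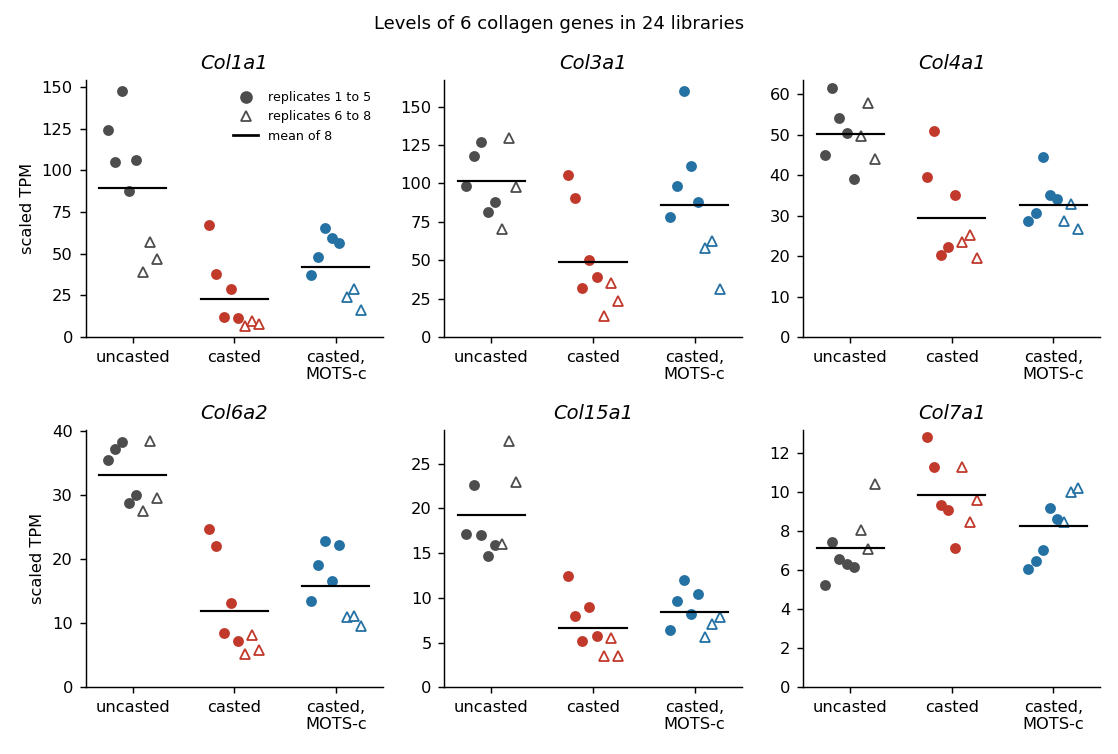
Scaled TPM of 6 collagen genes in the 24 libraries, 1 point a library, with the mean of 8 as a line and each axis starting at 0; circles are replicates 1 to 5 and triangles replicates 6 to 8. Col6a2 and Col15a1 in uncasted libraries lie above every casted library, while the ranges of Col1a1, Col3a1, Col4a1 and Col7a1 overlap.

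The levels plot shows a second pattern beside the groups. In uncasted libraries Col1a1 was 87.7 to 147.4 in replicates 1 to 5 and 39.2 to 57.4 in replicates 6 to 8, whereas Col3a1, Col4a1 and Col15a1 did not show that gap. The same replicates differed in markers of tendon cells. The summed level of 8 tendon markers was 172.7 to 263 in uncasted replicates 1 to 5 and 65.6 to 77.0 in replicates 6 to 8. It was 96.8 to 176.4 and 23.7 to 65.4 in the casted group, and 124.1 to 156.4 and 31.0 to 120.7 with MOTS-c. No label names these sets of replicates, and they were noticed in the data. The means of uncasted replicates 1 to 5 over those of replicates 6 to 8 had a ratio of 3.09 for the tendon sum, 2.39 for Col1a1, 2.30 for Col1a2, 2.39 for Col11a2, 3.78 for Col11a1, 2.19 for Col12a1 and 3.69 for Col8a2. For Col3a1 that ratio was 1.03, for Col4a1 0.989, for Col6a1 1.10, for Col5a1 0.953 and for Col15a1 0.789. In the casted group these genes had ratios of 2.63, 1.48, 1.97, 2.05 and 1.93 in the same order, beside 3.87 for Col1a1. With MOTS-c they had 2.12, 1.18, 1.72, 1.63 and 1.36, beside 2.31 for Col1a1. Type I and XI collagens and Col12a1 are known as tendon collagens. So is type III, whose gene Col3a1 had the ratio of 1.03 in uncasted libraries. The part of tendon tissue in these ratios was not tested.

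**Figure D3:**
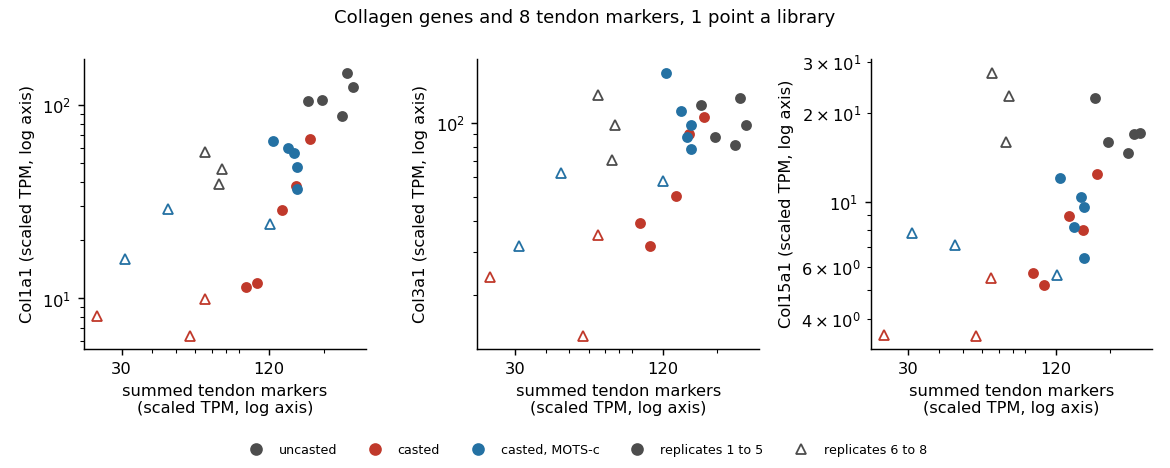
Scaled TPM of Col1a1, Col3a1 and Col15a1 against the summed scaled TPM of 8 tendon markers, 1 point a library, both axes logarithmic; circles are replicates 1 to 5 and triangles replicates 6 to 8. Uncasted triangles lie to the left of uncasted circles in each panel and below them for Col1a1 alone.

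The tendon markers moved with casting too: 4 of the 8 (Kera, Comp, Mkx and Tnmd) were lower in casted than in uncasted libraries and none was higher, beside 27.7% of all genes lower. On the deposited scale 2 were lower and 1 higher. The lower collagens were therefore refitted in ways chosen after seeing the data. With the log2 tendon sum as a covariate 26 of 35 were lower (26.1% of all genes) and 2 higher (4045 of 14690 genes), with Col27a1 lost. Within replicates 1 to 5 alone 24 were lower (21.1% of all genes), and within replicates 6 to 8 alone 25 were (21.3% of all genes). Col1a1 changed by -1.66 with the covariate (adjusted p 1e-05), by -2.11 within replicates 1 to 5 and by -2.42 within replicates 6 to 8. Col3a1 changed by -0.92, -0.82 and -2.05 in the same 3 fits. The casted group is also uneven between replicates 1 to 4 and 5 to 8, and each set was used alone. No label names these sets either, and casted replicates 5 to 8 include replicates 6 to 8, which had the lower tendon sums. All 8 uncasted libraries were kept as the reference. With casted replicates 1 to 4 only, 18 collagens were lower (19.8% of all genes) with a median of -0.49 over the 35. With casted replicates 5 to 8 only, 27 were lower (27.7% of all genes) with a median of -0.94. Col3a1, Col5a2, Col5a3, Col8a2, Col11a1, Col12a1, Col14a1, Col16a1 and Col27a1 missed the threshold with casted replicates 1 to 4 only.

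All 5 basement membrane collagens tested fell, by 0.46 to 0.81 on the log2 scale. Col4a1 and Col4a2 encode the chains of the common type IV network and start head to head on chromosome 8, where their annotated ends share 22 bases. Col4a1 ran from 38.9 to 61.5 (median 50.0) in uncasted libraries, from 19.4 to 50.8 (median 24.4) in casted libraries and from 26.6 to 44.6 (median 31.7) with MOTS-c. Its casting change was -0.81 ± 0.16 (adjusted p 0.000101), and the groups overlapped. Col4a2 ran from 25.2 to 36.0 (median 28.4), from 13.3 to 31.2 (median 16.7) and from 16.0 to 25.6 (median 22.5), a casting change of -0.61 ± 0.14 whose call was lost within replicates 1 to 5. On the deposited scale neither passed: Col4a1 was at -0.31 (adjusted p 0.120), and 3 of the 5 basement membrane collagens were called. Those 3 were the less abundant chains Col4a3, Col4a4 and Col4a5, which had uncasted means of 1.16, 0.879 and 2.09 and casted means of 0.413, 0.369 and 0.881. Col4a3 and Col4a4 are also a head to head pair, with 71 bases between their annotated starts on chromosome 1. Whether the counting used strand is not stated, and without it reads of genes that share exonic bases on opposite strands cannot be told apart. Among the collagens tested the shared bases were 22 between Col4a1 and Col4a2, 43 between Col4a2 and Gm15419, 563 between Col4a3 and C430014B12Rik, 99 and 113 between Col5a1 and its 2 opposite transcripts 2810430I11Rik and Gm13372, 63 between Col6a6 and Gm38314, 14 between Col15a1 and Gm12426, and 16 between Col22a1 and Gm16308.

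The FACIT collagens changed in both directions. Col19a1 encodes a minor FACIT collagen known from basement membrane zones of muscle, vessels and nerve. Its gene (ENSMUSG00000026141) lies on chromosome 1 from 24261890 to 24587472, minus strand, GRCm38. Its neighbour Col9a1, a chain of the cartilage FACIT collagen type IX, lies on the plus strand from 24177610 to 24252684, so that the genes stand tail to tail with 9205 bases between them. Col19a1 was 0.189 to 0.571 (median 0.516) in uncasted libraries, 9.20 to 37.2 (median 14.7) in casted libraries and 0.887 to 18.7 (median 9.45) in casted libraries with MOTS-c. Every casted library lay above every uncasted one, and so did every MOTS-c library. The mean rose 37.8-fold, from 0.458 ± 0.138 to 17.3 ± 9.26 (SD, n = 8), a log2 change of 3.52 ± 0.33 (SE, adjusted p 3.50e-09 in limma). This placed Col19a1 after Col3a1, Col1a2, Col4a1, Col1a1 and Col4a2 in mean level among the collagens of casted muscle. Over the fits that left out 1 library each, its change stayed between 3.35 and 3.63. It was 3.18 with casted replicates 1 to 4 only, 3.87 with casted replicates 5 to 8 only and 3.80 on the deposited scale. The lowest MOTS-c value of 0.887 is that of replicate 5, the library that stood apart from its group, and the other 7 lay between 6.52 and 18.7.

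Col9a1 moved the other way. It was 1.18 to 1.77 (median 1.42) in uncasted libraries, 0.0808 to 0.291 (median 0.155) in casted libraries and 0.118 to 0.651 (median 0.217) with MOTS-c. The uncasted mean of 1.44 was 8.67 times the casted mean of 0.167, and the log2 change of -1.07 ± 0.08 (adjusted p 6.13e-11) understates this because of the pseudocount. With a pseudocount of 0.1 in place of 1 the change was -2.58. The other chains of type IX, Col9a2 and Col9a3, were below the filter, with uncasted means of 0.310 and 0.0926.

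**Figure D4:**
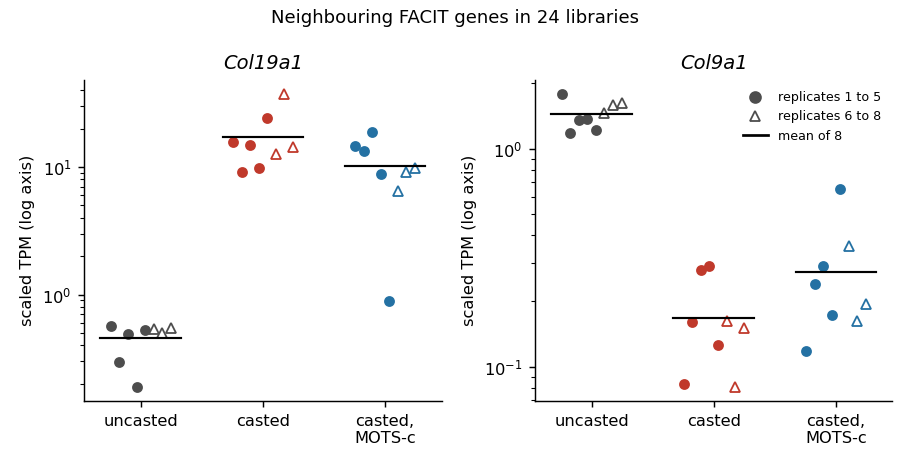
Scaled TPM of the neighbouring genes Col19a1 and Col9a1 in the 24 libraries on logarithmic axes, 1 point a library, with the mean of 8 as a line; circles are replicates 1 to 5 and triangles replicates 6 to 8. Casted libraries lie at 9.20 to 37.2 for Col19a1 and at 0.0808 to 0.291 for Col9a1, on opposite sides of the uncasted libraries.

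The plot of the neighbouring genes shows that replicates 6 to 8 lie within the spread of replicates 1 to 5 for Col19a1 in uncasted libraries, unlike Col1a1. The bases before the annotated starts of both genes are printed because their RNA changed in opposite directions, together with the gap shared by Col4a4 and Col4a3, which fell together. They are from RefSeq's promoter table on GRCm38.p6, the gap being part of its Col4a4 entry. Each reads 5′ to 3′ on the strand of the gene named first, ends before the first annotated exonic base, and has in capitals each match to the E-box letters CANNTG. The Col19a1 window is chr1:24587473-24587687 (minus strand), and the Col9a1 windows are chr1:24177360-24177609 and chr1:24194953-24195186 (plus strand). The gap is chr1:82586850-82586920, read on the minus strand, the strand of Col4a4.
Col19a1: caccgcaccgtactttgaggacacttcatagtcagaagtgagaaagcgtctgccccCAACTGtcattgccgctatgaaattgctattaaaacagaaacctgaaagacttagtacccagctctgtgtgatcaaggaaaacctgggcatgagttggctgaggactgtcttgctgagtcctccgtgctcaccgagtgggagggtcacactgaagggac
Col9a1, upstream start: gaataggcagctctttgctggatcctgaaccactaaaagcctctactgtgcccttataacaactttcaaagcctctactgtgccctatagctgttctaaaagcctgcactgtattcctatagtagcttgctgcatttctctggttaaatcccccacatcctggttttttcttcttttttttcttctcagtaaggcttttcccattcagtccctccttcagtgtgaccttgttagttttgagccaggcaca
Col9a1, downstream start: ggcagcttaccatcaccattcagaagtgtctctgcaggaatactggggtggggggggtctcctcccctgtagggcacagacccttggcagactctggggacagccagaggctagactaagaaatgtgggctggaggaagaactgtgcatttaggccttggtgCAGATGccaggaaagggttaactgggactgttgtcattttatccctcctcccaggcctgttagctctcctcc
Col4a4 to Col4a3: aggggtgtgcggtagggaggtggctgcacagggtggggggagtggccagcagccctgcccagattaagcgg
The Col19a1 window holds 1 E-box match, the upstream Col9a1 window none, the downstream Col9a1 window 1 and the Col4a4 to Col4a3 gap none. RefSeq's table held 35 of the 44 collagens, with 38 windows of 250 bases before a start. Of these, 19 (50%) held CANNTG, which reads the same on both strands in its fixed letters, beside 66.2% of the 32851 promoters in the table. CCAAT, searched on both strands, was in 13 of 38 windows (34.2%) beside 33.9% of all promoters, and TATAAA in 5 of 38 (13.2%) beside 12.4%. A match describes the letters and is no evidence of binding.

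The remaining FACIT collagens fell or did not pass. Col22a1, a collagen of tissue junctions such as the myotendinous junction, ran from 3.92 to 8.63 (median 5.59) in uncasted libraries, from 1.07 to 3.44 (median 1.85) in casted libraries and from 1.34 to 4.06 (median 1.99) with MOTS-c. Casted and uncasted libraries did not overlap, and the change was -1.21 ± 0.16 (adjusted p 6.17e-07). Col14a1, which binds type I fibrils and is made by fibroblasts, ran from 3.84 to 7.40 (median 6.02), from 1.62 to 6.36 (median 2.84) and from 2.05 to 7.22 (median 5.03) in the same order. Its casting change was -0.80 ± 0.20 (adjusted p 0.00137). Col12a1, a fibril-bound collagen of tendon, and Col16a1 changed by -0.76 ± 0.26 and -0.50 ± 0.13, and all 3 calls were lost on the deposited scale. Col20a1, with means of 1.84 uncasted and 1.86 casted, changed by 0.02 with an interval from -0.18 to 0.22.

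Among the other collagens 4 beaded filament genes and both multiplexin genes fell. Type VI collagen is assembled from 3 different chains, and loss of any of them is known to cause muscle disease. Col6a1 ran from 27.3 to 38.1 (median 33.7) in uncasted, 7.58 to 27.3 (median 10.8) in casted and 11.2 to 25.4 (median 18.1) in MOTS-c libraries, a casting change of -1.33 ± 0.21. Col6a2 ran from 27.6 to 38.4 (median 32.7), from 5.15 to 24.6 (median 8.33) and from 9.52 to 22.9 (median 15.0), a casting change of -1.59 ± 0.25. Col6a3 ran from 18.3 to 29.0 (median 24.7), from 4.83 to 22.6 (median 8.96) and from 9.45 to 24.1 (median 13.6), a casting change of -1.11 ± 0.23. The adjusted p of these 3 genes was at most 0.00018, and of the 3 only Col6a2 had casted libraries wholly below uncasted ones. Col15a1, a multiplexin of the muscle basement membrane zone, ran from 14.7 to 27.5 (median 17.1) in uncasted, 3.49 to 12.4 (median 5.62) in casted and 5.64 to 12.0 (median 8.03) in MOTS-c libraries. Its groups did not overlap between casted and uncasted mice, and it changed by -1.48 ± 0.19 (adjusted p 5.13e-07). Its relative Col18a1, the source of endostatin, changed by -0.57 ± 0.12, a call lost on the deposited scale.

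Col7a1, the anchoring fibril collagen best known from skin, rose modestly. It ran from 5.21 to 10.4 (median 6.81) in uncasted libraries, from 7.15 to 12.8 (median 9.46) in casted libraries and from 6.04 to 10.2 (median 8.53) with MOTS-c. The change was 0.42 ± 0.12 (adjusted p 0.00473) with overlapping groups, and its call was lost with casted replicates 5 to 8 only and within replicates 6 to 8. Col6a6 and Col8a2 fell by 0.72 and 0.56 on the log2 scale, and the call of Col8a2 was lost without uncasted replicate 1, within replicates 6 to 8 and on the deposited scale. The 5 others tested, Col8a1, Col13a1, Col23a1, Col26a1 and Col28a1, had changes from -0.16 to -0.06 that did not pass. Col23a1 was called lower within replicates 1 to 5 only, with means of 1.13 uncasted and 0.674 casted. Within replicates 6 to 8 its change turned sign without a call, with means of 0.760 and 0.938.

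Ratios of collagen genes within a library do not depend on the scaling between libraries. They were tested for 11 pairs in 3 comparisons (log2 ratio of TPM + 0.1, exact two-sided permutation over 12870 arrangements, Benjamini-Hochberg over 33), and 19 of the 33 passed. The ratio of Col1a2 to Col1a1 was 0.40 ± 0.10 (SD, n = 8) on the log2 scale in uncasted and 0.87 ± 0.31 in casted libraries, a difference of 0.47 (exact permutation, adjusted p 0.00659). Col1a1 thus fell more than its partner chain. The ratio of Col3a1 to Col1a1 was higher by 1.0 in casted libraries (exact permutation, adjusted p 0.0134), that of Col5a1 to Col1a1 by 1.08 (adjusted p 0.0137) and that of Col4a1 to Col1a1 by 1.47 (adjusted p 0.0134). The ratio of Col6a2 to Col6a1 differed by -0.29 (exact permutation, adjusted p 0.00718) and that of Col15a1 to Col18a1 by -0.84 (adjusted p 0.00659). The partner chains Col4a2 to Col4a1 and Col6a3 to Col6a1 did not pass, with differences of 0.19 and 0.21 (exact permutation, adjusted p 0.0552 and 0.0859).

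**Figure D5:**
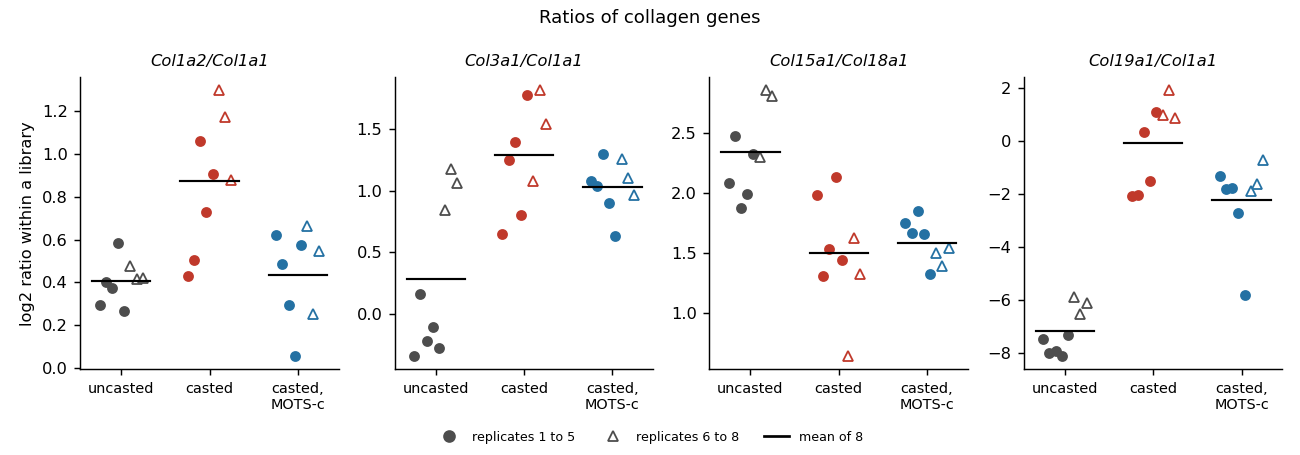
Log2 ratio of 4 pairs of collagen genes within each library, 1 point a library, with the mean of 8 as a line; circles are replicates 1 to 5 and triangles replicates 6 to 8. For Col3a1 over Col1a1 the uncasted triangles lie at 0.84 to 1.17 and the uncasted circles at -0.34 to 0.16, and for Col19a1 over Col1a1 every casted library lies above every uncasted one.

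The ratio plot shows that ratios to Col1a1 depend on the set of replicates. Col3a1 over Col1a1 was -0.34 to 0.16 in uncasted replicates 1 to 5 and 0.84 to 1.17 in replicates 6 to 8, the replicates with the lower tendon sums. In casted replicates 6 to 8 this ratio was 1.08 to 1.81, overlapping the uncasted range, with means of 1.477 casted and 1.025 uncasted. The casting difference within replicates 6 to 8 was not tested. Within replicates 1 to 5 alone, chosen after seeing the data, the casting difference of this ratio was 1.33 (exact permutation, adjusted p 0.0238), while the difference of Col1a2 over Col1a1 was 0.34 and no longer passed (adjusted p 0.077). Col15a1 over Col18a1 was -0.47 there and did not pass (exact permutation, adjusted p 0.105), and neither did Col6a2 over Col6a1, at -0.18 (adjusted p 0.107). Col5a2 over Col5a1, which differed by 0.44 over all libraries (exact permutation, adjusted p 0.00684), was 0.33 there and did not pass (adjusted p 0.0604). Col6a3 over Col6a1 did pass there, at 0.30 (exact permutation, adjusted p 0.0437). Col19a1 against the fibrillar Col1a1 and the basement membrane Col4a1 gave the largest differences among the 11 pairs. Col1a1 was also the fibrillar collagen that fell most, which adds to its difference. Its log2 ratio to Col1a1 was -7.17 ± 0.88 (SD, n = 8) in uncasted and -0.07 ± 1.57 in casted libraries, a difference of 7.10, and that to Col4a1 differed by 5.63. Both had an exact permutation p of 0.000155, the smallest these groups allow (adjusted p 0.00103).

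Within the casted group, libraries varied together for some collagens. Across the 8 casted libraries Col1a1 correlated with Col1a2 (Pearson r 0.99, exact permutation p 0.000174, adjusted p 0.000729; Spearman rho 0.95, p 0.00114, adjusted p 0.00799). The r was 0.97 without the 2 libraries farthest from the median. With Col3a1 the r was 0.94 (exact permutation p 9.92e-05, adjusted p 0.000694) and rho 0.93 (p 0.00223, adjusted p 0.00937), and r was 0.84 without the 2. With Col6a1 the r was 0.97 (exact permutation p 0.000149, adjusted p 0.000729) and rho 0.95 (p 0.00114, adjusted p 0.00799), and r was 0.92 without the 2. With Col15a1 the r was 0.96 (exact permutation p 0.000471, adjusted p 0.00165) and rho 0.90 (p 0.00456, adjusted p 0.016), and r was 0.95 without the 2. Col4a1 did not follow Col1a1 in the same way: r was 0.66 (exact permutation p 0.0677, adjusted p 0.102), rho 0.55 (p 0.171, adjusted p 0.239), and r was -0.00 without the 2 libraries. Between Col1a1 and Col19a1 the r was -0.38 (exact permutation p 0.355, adjusted p 0.438) and rho -0.17 (p 0.703, adjusted p 0.777), and r was -0.32 without the 2. The p-values are adjusted over 21 such relations in the 3 groups. In uncasted and MOTS-c libraries Col1a1 lies apart in replicates 1 to 5 and 6 to 8, so an r there spans both sets. With Col1a2 the r was 0.99 in uncasted and 0.96 in MOTS-c libraries. With Col3a1, Col6a1 and Col15a1 it was 0.41, 0.66 and -0.31 in uncasted libraries (exact permutation, adjusted p 0.397, 0.111 and 0.517). In MOTS-c libraries these were 0.96, 0.89 and 0.68 (exact permutation, adjusted p 0.000694, 0.00839 and 0.102). In the casted group too the 3 Col1a1 values in replicates 6 to 8 are below the 5 others, so the relations above and the tendon sums share those libraries.

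The genes that fold, cut, cross-link and bind collagen changed in both directions with casting, to be read against the 27.7% of all genes that were lower and the 28.7% that were higher. Of 19 tested genes of collagen folding and secretion 9 were lower and 4 higher. The collagen chaperone Serpinh1 (HSP47) fell by 1.11 on the log2 scale, and the prolyl hydroxylase subunit P4ha2 fell by 0.78. The other hydroxylase subunit and general disulphide isomerase P4hb rose by 0.97. Of 12 genes of procollagen cleavage and cross-linking 7 were lower and 2 higher: the lysyl oxidase Lox rose by 1.31 ± 0.23 (adjusted p 2.65e-05), while Loxl2 and the procollagen C-proteinase Bmp1 changed by -0.95 and -0.87. Of 10 collagen receptors and uptake genes 6 were lower and 2 higher, and the uptake receptor Mrc2 and the anthrax toxin receptors Antxr2 and Antxr1 changed by -0.67, -0.64 and -0.60. Of 4 collagen-cleaving proteases tested the 2 that passed, Ctsk and Mmp2, changed by -0.61 and -0.59. Of 11 genes of collagen transcription and TGF-beta signalling 5 were higher and 1 lower: Tgfbr1, a TGF-beta receptor, and Egr1 changed by 1.38 and 0.89, and Creb3l1 by -0.48. All these lists shift up on the deposited scale, where 7 folding genes were higher and 4 lower, no receptor, protease or TGF-beta gene was lower, and cross-linking genes stood at 3 and 3, where 62.2% of all genes were higher and 7.43% lower.

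Markers of the cell types that make collagen also moved with casting, and their part in the collagen changes was not tested. The tendon fits above cannot test it for tendon cells, since the tendon markers themselves moved with casting. The shares of all genes beside these counts are again 27.7% lower and 28.7% higher. Of 10 fibroblast markers 6 were lower and none higher, with sums of 994.2 to 1349 scaled TPM in uncasted, 620.8 to 1357 in casted and 728.3 to 1365 in MOTS-c libraries. Of 8 endothelial markers 7 were lower and 1 higher (sums 106.5 to 153.5, 78.8 to 116 and 99.5 to 125.8), and of 8 smooth muscle and pericyte markers 6 were lower (219.2 to 278.2, 126.9 to 188 and 155.7 to 239.5). Of 7 Schwann cell markers 4 were lower and 1 higher (102.7 to 156.1, 64.5 to 93.8 and 71.8 to 168.1), and of 7 macrophage markers 4 were higher and none lower (37.7 to 53.6, 55.0 to 137.1 and 69.9 to 147). Of 4 satellite cell markers tested 1 was higher and 1 lower (16.1 to 20.6, 24.1 to 35.1 and 24.1 to 30.7), and of 5 adipocyte markers 1 was higher (11.6 to 22.0, 17.5 to 31.2 and 21.5 to 40.3). Cartilage and bone markers, the defining company of type II and IX collagens, summed to 0.797 to 2.24 over all libraries, with Matn1 at 0 in every library and Ibsp and Bglap at 0 in all uncasted ones. Of 8 muscle fibre markers 7 were lower and none higher, and their sums, 122168 to 139678 in uncasted, 56146 to 85998 in casted and 59273 to 105947 in MOTS-c libraries, did not overlap between uncasted and casted mice. Their part in the collagen changes was not tested either. On the deposited scale, where 62.2% of all genes were higher and 7.43% lower, the marker counts differed: 3 fibroblast markers were higher and 2 lower, 2 endothelial were higher and 2 lower, 2 smooth muscle were lower and 0 higher, 1 Schwann cell was higher and 2 lower, 7 of 7 macrophage and 4 of 5 adipocyte were higher, 2 of 4 satellite cell were higher, and 4 of 8 muscle fibre were lower and 1 higher.

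MOTS-c against casted gave no called collagen. In limma 0 of 35 were higher (0.0136% of all genes) and 0 lower (0.00681% of all genes), while at an unadjusted p under 0.05 there were 12 higher and 1 lower, 13 of 35, where 13.5% of all genes tested had such a p. The estimate was positive for 30 of the 35, with a median of 0.20 beside -0.00 for all genes. Col1a1 was 1.15 ± 0.40 (SE, interval 0.33 to 1.97, adjusted p 0.245), Col3a1 0.94 ± 0.32 (adjusted p 0.24) and Col16a1 0.43 ± 0.13 (adjusted p 0.198). The groups overlapped: the MOTS-c libraries lay at 16.1 to 65.3 for Col1a1, inside the casted range of 6.39 to 67.1. Col19a1 was the 1 collagen with an unadjusted p under 0.05 in the lower direction, at -0.81 ± 0.33 (interval -1.48 to -0.14, adjusted p 0.299). Without MOTS-c replicate 5 it was -0.48, and it ran from -0.96 to -0.48 over the fits that left out 1 library each. The estimates rest on which casted libraries serve as the reference. Against casted replicates 5 to 8 only, 13 collagens were higher (4.62% of all genes), among them Col1a1 at 2.0, and against casted replicates 1 to 4 only none was, with 19 of 35 estimates positive and a median of 0.03. Both sets were set against all 8 MOTS-c libraries, and casted replicates 6 to 8, with the lower tendon sums, fall wholly in the first. No collagen was called within replicates 1 to 5 only, where 0 of 14690 genes were higher and 1 lower. Nor was any within replicates 6 to 8 only, where 14 genes were higher and 3 lower.

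Of the within-library ratios 3 passed between MOTS-c and casted libraries: Col1a2 to Col1a1 at -0.44 (exact permutation, adjusted p 0.0137), Col4a1 to Col1a1 at -1.0 (adjusted p 0.0418) and Col19a1 to Col1a1 at -2.16 (adjusted p 0.0253). All 3 have Col1a1 below the line, and none of the 3 passed with casted replicates 1 to 4 only or within replicates 1 to 5 alone. No gene of the folding, cross-linking, receptor, protease or TGF-beta lists, nor of the marker lists, was called in this comparison.

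MOTS-c against uncasted uses the same uncasted libraries as the casting comparison, so the values below are not independent of it. Of the 35 collagens 19 were lower (24.7% of all genes) and 1, Col19a1, higher (26.0% of all genes). On the deposited scale 10 were lower (6.94% of all genes) and 5 higher (60.0% of all genes). All 5 basement membrane collagens were lower, with 5 of 10 fibrillar, 2 of 7 FACIT and 7 of 13 other collagens. Col19a1 was at 2.71 ± 0.33 (adjusted p 3.19e-07) and casted libraries with water at 3.52 ± 0.33, both against the same 8 uncasted libraries. Without MOTS-c replicate 5, the lowest of its group for this gene, the MOTS-c estimate was 3.045 ± 0.221. Col1a1 was at -1.07 ± 0.40 (adjusted p 0.0276), a call lost without any one of uncasted replicates 1 and 3 and MOTS-c replicates 6 and 8, with no filter, on the deposited scale and with totals taken without mitochondrially encoded genes. The calls of Col4a1, Col4a2 and Col4a3 were also lost in the last 2 of these. Col3a1 was at -0.34 (interval -1.0 to 0.32, adjusted p 0.393) and Col5a2 at -0.07 (interval -0.52 to 0.38, adjusted p 0.811). For 5 collagens that were lower, Col4a4, Col6a1, Col6a2, Col9a1 and Col15a1, the libraries of the groups did not overlap. The share of all genes without overlap was not counted for this comparison, so the 5 cannot be read against it. The call of Col6a1 was lost on the deposited scale.

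The share of all collagens in the TPM of a library was small and is given without a test. It was 0.0305 to 0.0646% in uncasted, 0.0178 to 0.0622% in casted and 0.024 to 0.0683% in MOTS-c libraries. Within it Col1a1, Col1a2 and Col3a1 together took a mean of 51.6% ± 6.93 (SD, n = 8) of collagen TPM in uncasted libraries, 36.2% ± 9.28 in casted and 47.5% ± 6.88 with MOTS-c.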

How the data were processed

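Poly-adenylated RNA was captured from TRIzol and column extracts, per the labels' protocols. The authors deposited 1 table of TPM values per library, and the submitters' processing notes name FastQC, STAR, RSEM, DESeq2 and GRCm38.p6; how TPM were made beyond that, the versions and the strand are not given in the sources used here. No file holds counts, so depth is unknown and no counting interval is given. Here each library was scaled with a factor from trimmed log ratios (30% of ratios and 5% of levels trimmed), filtered at TPM 0.5 in 8 libraries, and fitted as log2(scaled TPM + 1) in limma 3.58.1 (R 4.3.3) with trend, all 24 libraries and 3 group means, with Benjamini-Hochberg adjustment over 14690 genes. Scripts were tested on simulated data. Groups come from the sample titles; the MOTS-c files bear an abbreviation in their names that no label explains. Ensembl IDs were matched to symbols for 55141 of 55487 genes. Ratios and correlations used exact permutation (scipy 1.17.1). Members and lists were chosen with earlier results of these data known. Values are printed in full for every collagen called in casted against uncasted with a group mean of at least 5, for Col19a1 and for the 2 most abundant of each class; in other lists up to 3 genes with the largest called changes are named. Other genes named were chosen after their values were seen. Alternatives covered scaling, pseudocount, filter, weights, the replicate block, casted subsets and each library left out.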

Additional observations from a re-analysis of the deposited data

Results flagged for a closer look

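Of 105 groups of 8 libraries (35 collagens in 3 groups), 6 had 1 library farther from the rest than Dixon's 95% value of 0.526 allows; chance flags about 1 in 20 groups. Col4a1 in MOTS-c replicate 3 was 44.6 scaled TPM, with the others at 26.6 to 35.1. Replicate 5 of the MOTS-c group was the high library for 3 low genes: Col4a5 at 1.92 (others 0.797 to 1.30), Col9a1 at 0.651 (others 0.118 to 0.356) and Col27a1 at 1.26 (others 0.337 to 0.754). The same library held the lowest Col19a1 of its group, 0.887, and the highest mitochondrially encoded share, 20.3% of TPM. Replicate 1 of the casted group was high for Col6a6, at 1.70 (others 0.234 to 0.767), and for Col14a1, at 6.36 (others 1.62 to 3.82).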

How the results depend on the processing

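Alternatives with scaling, filter and left-out libraries were planned, and those with casted replicates 1 to 4 or 5 to 8 were listed with them. No label names these casted sets, which follow an unevenness in the data, so they are not taken as fixed beforehand. Alternatives with tendon markers or replicates 1 to 5 and 6 to 8 were chosen after seeing the data. Where a count moved, the cause was not tested. In casted against uncasted, the 2 higher collagens became 1 with casted replicates 5 to 8 only and within replicates 6 to 8 only, and the 27 lower became 17 on the deposited scale. In MOTS-c against casted, 13 were higher with casted replicates 5 to 8 only, against 0 in the main fit and within replicates 6 to 8 only. In MOTS-c against uncasted, the 1 higher became 5 on the deposited scale and 3 with totals taken without mitochondrially encoded genes (7962 of 14675 genes). It became 2 with no filter (3832 of 30779 genes), with the tendon covariate (3734 of 14690) and within replicates 1 to 5 only (2723 of 14690). The 19 lower became 10 on the deposited scale and 11 without mitochondrially encoded genes (1250 of 14675 genes). Called changes that turned sign, all on the deposited scale, were Col5a3 in casted against uncasted (0.081) and, in MOTS-c against uncasted, Col4a2 (0.0103) and Col18a1 (0.0047). Of the within-library ratios 19 passed, 10 with casted replicates 1 to 4 only and 12 within replicates 1 to 5 only. Over the fits without 1 library, lower calls ran from 26 to 27 in casted against uncasted and from 17 to 21 in MOTS-c against uncasted, and other counts did not move.

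With the replicate block, casted against uncasted gave 27 lower and 2 higher collagens, where 4134 and 4241 of the 14690 genes tested were. MOTS-c against uncasted gave 21 lower (Col5a1 and Col12a1 gained), where 3659 of the 14690 genes were. Same-numbered libraries correlated between -0.24 and 0.37 in their deviations, so the numbers are not taken to pair mice. Depth is unknown, so a level near 0 has no stated limit.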
